A study of Mus musculus with 6 samples.

Results

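The carriers described here are the members of 7 amino acid transporter families of the mouse, Slc1, Slc3, Slc6, Slc7, Slc36, Slc38 and Slc43. They were measured in colon of Adamts4 knockout mice (KO, 3 libraries) and of wild-type mice (WT, 3 libraries). Animals of both groups had received 2.5% dextran sodium sulfate (DSS), a polysaccharide that injures the colonic epithelium and causes colitis, for 7 days, and no untreated colon was analysed here. Adamts4 encodes a secreted protease that cleaves aggrecan and related proteoglycans. The allele, mouse strain, sex and age were not stated in the labels, and neither was the number of animals behind a library. The p-values therefore cover the spread among these libraries, which may be partly technical.

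Genes were chosen by symbol and by their summed read count, that is every gene named as a numbered member of one of these families, and kept when the read counts of the 6 libraries summed to 10 or more. Of 21899 genes in the table, 61 matched and 52 were kept. The 9 left out by the count minimum included 4 with no read in any library, namely Slc6a3, Slc6a16, Slc6a21 and Slc7a12. The other 5 were Slc6a5, Slc6a18, Slc7a13, Slc36a3 and Slc38a8. Just outside the minimum, Slc6a5 and Slc7a13 had 7 reads each over the 6 libraries, and just inside it Slc1a6 had 16 and Slc6a13 had 17. The minimum used only this sum, without regard to genotype.

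Amino acids cross membranes through carriers that differ in substrate and driving force. Slc1 members take up glutamate or exchange small neutral amino acids, and Slc6 members use sodium and chloride to bring in neutral amino acids, creatine, taurine or neurotransmitters. Slc3 proteins are heavy chains that bring the Slc7 light chains to the plasma membrane, while the cationic members of Slc7 carry arginine and lysine without a heavy chain. Slc36 members are coupled to protons, Slc38 members carry glutamine and alanine with sodium, and Slc43a1 and Slc43a2 let large neutral amino acids pass down their gradient. In the intestine these carriers serve absorption, the feeding of the epithelium and the supply of immune cells with glutamine, arginine and tryptophan.

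Library totals ran between 15786214 and 22932125 counts. Adamts4 had no count in any KO library, against 900, 992 and 997 counts in the WT libraries. KO 3 lay furthest out on a principal component with 42.9% of the variance, at 73.1. KO 2 followed at 26.5, and the other libraries lay between -47.0 and -6.88. Mitochondrial transcripts made up 4.03, 7.66 and 9.50% of counts in the KO libraries and 6.05, 4.29 and 4.46% in the WT libraries. Levels below are read counts divided by library size and TMM factor (scaled CPM). The 8 epithelial markers summed to between 10231 and 12821 scaled CPM in KO and between 9370 and 10835 in WT, so the epithelium that a colon label implies was present. Transcripts of 7 pancreatic acinar genes, which colon does not make in quantity, summed to 29831, 494 and 60.2 scaled CPM in the KO libraries and to 72.6, 1127 and 26799 in the WT libraries. KO 1 and WT 3 therefore held material that goes against their tissue label. Fold changes of single genes, family sums and pathway list medians that turned or moved by more than 1.5 times without them are given both ways. In bulk tissue, fewer cells of a type and less RNA per cell cannot be told apart.

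Promoter stretches of 4 genes are shown first, each the 250 bases before an annotated transcript start on the gene's own strand (RefSeq, GRCm38.p6). Slc43a2 and Slc1a4 had the smallest p-values below and above 0 among carriers with a sequence, and Slc3a1 is a heavy chain whose groups did not overlap. Slc7a11, whose groups overlapped, was chosen because its stretch holds the amino acid response letters as a pair. Capitals mark the letters TGATGNAA (the core of the C/EBP-ATF response element bound by ATF4) or TGANTCA (the AP-1 element), searched on both strands; the matches marked do not overlap each other.
Slc43a2, chr11:75531444-75531693, plus strand: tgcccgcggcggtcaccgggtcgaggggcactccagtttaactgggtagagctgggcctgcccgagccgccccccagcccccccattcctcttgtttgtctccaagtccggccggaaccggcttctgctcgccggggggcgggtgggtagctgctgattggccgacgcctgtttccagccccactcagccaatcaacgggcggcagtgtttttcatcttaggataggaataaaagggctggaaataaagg
Slc1a4, chr11:20332714-20332963, minus strand: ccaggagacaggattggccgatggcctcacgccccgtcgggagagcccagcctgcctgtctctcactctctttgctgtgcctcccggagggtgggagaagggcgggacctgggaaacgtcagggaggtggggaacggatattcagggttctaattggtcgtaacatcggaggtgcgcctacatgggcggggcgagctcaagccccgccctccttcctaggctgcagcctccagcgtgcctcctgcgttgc
Slc3a1, chr17:85028097-85028346, plus strand: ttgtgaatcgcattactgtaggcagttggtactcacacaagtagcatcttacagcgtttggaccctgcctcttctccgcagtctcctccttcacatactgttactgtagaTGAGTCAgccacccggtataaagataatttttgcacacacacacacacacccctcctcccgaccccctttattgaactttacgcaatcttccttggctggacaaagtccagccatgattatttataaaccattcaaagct
Slc7a11, chr3:50443614-50443863, minus strand: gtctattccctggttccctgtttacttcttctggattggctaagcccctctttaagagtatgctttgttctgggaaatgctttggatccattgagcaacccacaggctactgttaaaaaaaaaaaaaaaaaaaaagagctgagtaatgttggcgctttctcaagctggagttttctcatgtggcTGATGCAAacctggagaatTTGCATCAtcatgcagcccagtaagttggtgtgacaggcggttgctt
The Slc7a11 stretch held TGATGNAA as a facing pair, and the Slc3a1 stretch held a single TGANTCA. Neither kind of letters was in the Slc43a2 and Slc1a4 stretches. Over all 32851 stretches of this length, 3.45% held TGATGNAA and 6.75% held TGANTCA. Of 57 stretches of 37 carriers that matched the table, 3 held TGATGNAA (Slc7a7 and Slc7a11) and 8 held TGANTCA (7 genes, among them Slc6a14 and Slc7a1).

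A few carriers made up most of the pool. By the authors' TPM values, which are scaled by transcript length so that genes can be compared, the 52 genes together held 1173 ± 150 TPM in KO and 1246 ± 101 TPM in WT (SD, n = 3 each), and the 10 most abundant held 77.1% of it. Slc6a14, the broad neutral and cationic carrier of the colonic surface, came first with 225 ± 86.1 TPM in KO and 178 ± 38.7 TPM in WT. Slc6a8, the creatine carrier, followed with 153 ± 43 TPM in KO and 167 ± 26.9 TPM in WT. The heavy chains Slc3a1 and Slc3a2 came next, with means over all libraries of 86.1 and 80.8 TPM, ahead of Slc38a6 (80.6), the glutamine exchanger Slc1a5 (77.9), the taurine carrier Slc6a6 (70.2), Slc38a10 (65.9), the amino acid-responsive Slc38a2 (58.3) and the cationic and neutral exchanger Slc7a7 (51.8).

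Mean TPM was 10 or more for 23 carriers, between 1 and 10 for 12, and below 1 for 17. The order was not sharp, since 48 of the 51 neighbouring pairs in it lay closer together than the larger of their SDs over the 6 libraries. The glutamate carriers Slc1a2, Slc1a6 and Slc1a7 of nerve tissue and the noradrenaline carrier Slc6a2 were among those below 1. The brush border carrier Slc6a19, a main route of neutral amino acid absorption in the small intestine, averaged only 0.478 ± 0.146 TPM in KO and 0.662 ± 0.162 TPM in WT.

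**Figure D1:**
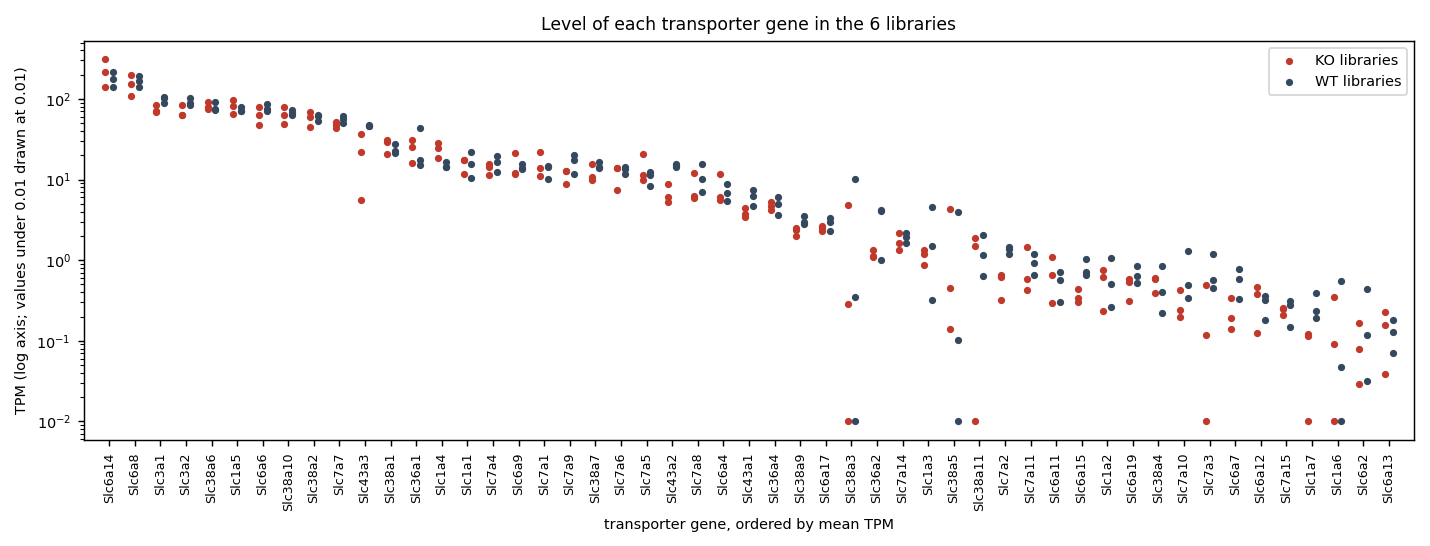
Deposited TPM of 51 of the 52 carriers (1 is not shown here) on a log axis, ordered by mean, with 1 point per library (KO red, WT blue; values under 0.01 are drawn at 0.01). Slc6a14 and Slc6a8 lead, 23 carriers have a mean of 10 TPM or more, and the libraries spread most widely for genes such as Slc38a3 and Slc38a5.

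Of the 52 carriers, 42 passed the expression filter and were tested with edgeR, and none was called at an adjusted p below 0.05, where 0.158% of all 14553 genes were called. Adjusted p ran between 0.127 and 0.999, limma-voom called none of the 42 either (background 0.199%), and edgeR without KO 1 and WT 3 called none (background 0.26%). DESeq2 called 2 of 50 carriers lower in KO, Slc43a2 and Slc7a2, against 2.76% of all genes it tested, and none higher, against 0.678%. The authors' deposited table has the same 2 below a false discovery rate of 0.05 (background 1.93%) and none higher (background 0.457%), and its p-values equalled those of DESeq2 within 0.1%. At an unadjusted edgeR p below 0.05 there were 5 carriers lower (background 7.85%), Slc3a1, Slc7a2, Slc36a2, Slc43a2 and Slc43a3, and 1 higher (background 5.17%), Slc1a4.

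KO and WT libraries did not overlap for 4 carriers that were lower in KO (background 10.2% of genes) and 1 that was higher (background 9.35%). These were the same genes without Slc36a2. As shares of the 42, the 9.52% lower and 2.38% higher were under the background. Fold changes, given as KO minus WT on the log2 scale, lay above 0 for 16 carriers and below 0 for 26, with a median of -0.12 against 0.03 for all genes. The change was under 0.5 in either direction for 78.6% of the carriers and for 79.4% of all genes. The 10 carriers not tested included Slc1a6, Slc1a7, Slc6a2, Slc6a12, Slc6a13, Slc7a10, Slc7a15, Slc38a3 and Slc38a5.

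**Figure D2:**
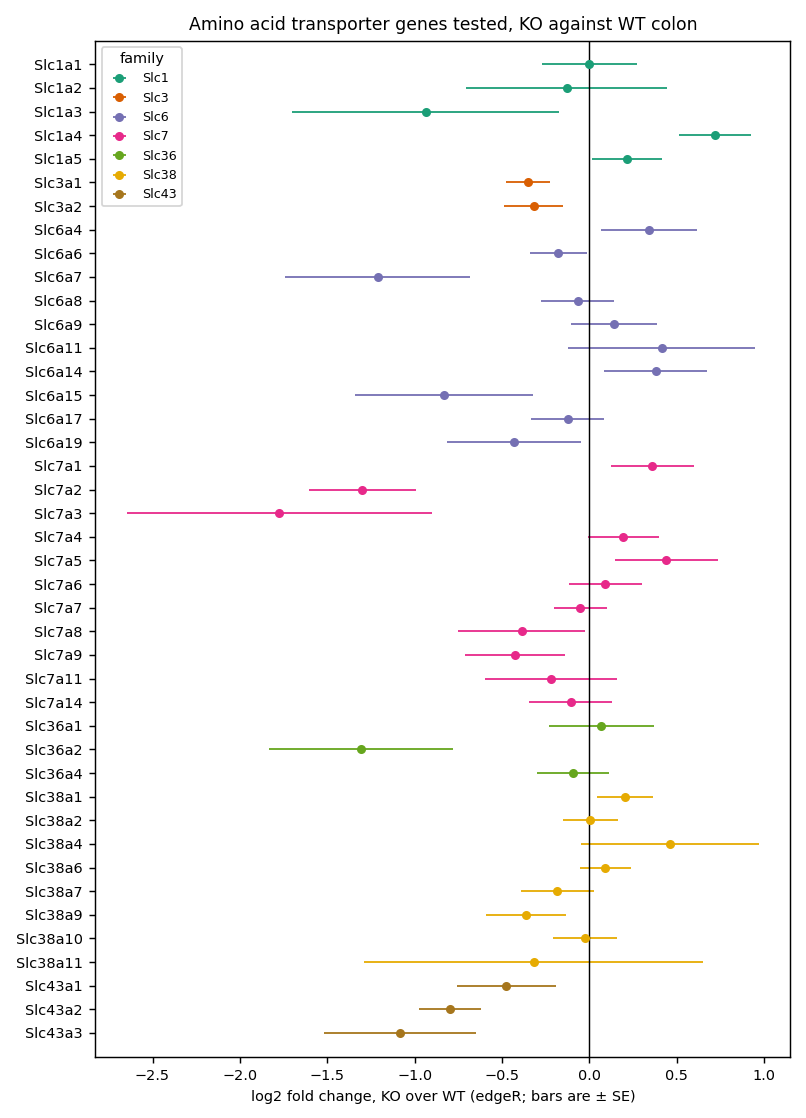
edgeR log2 fold change, KO over WT, of the 42 tested carriers with bars of ± SE, coloured by family. All 3 Slc43 genes and both Slc3 genes lie below 0, while Slc1a4 is at 0.72, and most of the others lie within 0.5 of 0.

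Of the 7 families, Slc43 had the summed level that differed most between the groups, with all 3 members below 0. Slc43a2 (LAT4, a uniporter of branched-chain and aromatic amino acids; GRCm38 chr11:75531694-75577575, plus strand) had 25.4, 19.0 and 19.2 scaled CPM in KO, against 33.9, 36.9 and 39.5 in WT. Every KO library lay below every WT library, with means of 21.2 ± 3.65 in KO and 36.8 ± 2.83 in WT (SD, n = 3 each). The log2 fold change was -0.80 ± 0.18 (SE; edgeR adjusted p 0.127), and DESeq2 gave an adjusted p of 0.00606. It passed the threshold in 3 of 18 alternative fits, all of them with DESeq2, and stayed between -0.95 and -0.72 when 1 library was left out. Without KO 1 and WT 3 it was -0.89 (edgeR adjusted p 0.157, DESeq2 0.0265). On the TPM scale it averaged 6.76 ± 1.85 in KO and 15 ± 0.778 in WT, and the authors' deposited table gives -1.15. Gm45606 overlaps it on the opposite strand, and reads of overlapping genes cannot be told apart without strand.

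Slc43a3, now known as a purine base carrier and enriched in endothelium, had 39.3, 24.9 and 8.91 scaled CPM in KO, against 51.3, 51.3 and 52.2 in WT. The WT libraries were nearly equal, while the KO libraries were all lower and far apart. The log2 fold change was -1.08 ± 0.44 (edgeR adjusted p 0.352, DESeq2 0.136). KO 3 weighed heavily, since the fold change was -0.68 without it, and without KO 1 and WT 3 it was -1.60 (edgeR adjusted p 0.218, DESeq2 0.0111). All 7 endothelial markers had fold changes below 0, and their sum was 304, 225 and 95.8 scaled CPM in KO, against 333, 362 and 410 in WT. The order of the KO libraries was the same in this sum as in Slc43a3. The macrophage, fibroblast, neutrophil, plasma cell, enteroendocrine and acinar marker sums also fell from KO 1 to KO 3, so this order was not particular to endothelium. The part of these cells in the result was not tested.

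Slc43a1 (LAT3), which lies 73.0 kb from Slc43a3 on chromosome 2, had 6.68, 3.78 and 4.29 scaled CPM in KO, against 5.94, 6.88 and 7.75 in WT. The groups overlapped through KO 1, and the fold change was -0.48 ± 0.28 (edgeR adjusted p 0.517). The 9 macrophage markers, all with fold changes below 0, summed to 526, 354 and 134 scaled CPM in KO, against 416, 644 and 771 in WT. Their part in the Slc43 values was not tested.

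Among the cationic carriers, Slc7a2 differed most by p-value, and the more abundant Slc7a1 lay on the other side of 0. Slc7a2 (CAT2, the inducible arginine carrier that supplies nitric oxide synthase and arginase; chr8:40862396-40922308, plus strand) had 2.36, 1.67 and 1.5 scaled CPM in KO, against 5.30, 3.82 and 4.55 in WT. All KO libraries lay below all WT libraries, at a low level of 0.533 ± 0.184 TPM in KO and 1.35 ± 0.149 TPM in WT. The log2 fold change was -1.30 ± 0.31 (edgeR adjusted p 0.152), and Slc7a2 fell in the DESeq2 fit with an adjusted p of 0.0200. That call was lost without KO 3 (DESeq2 adjusted p 0.0896) and without KO 1 and WT 3 (fold change -1.52, DESeq2 adjusted p 0.113). Gm26584 overlaps it on the opposite strand.

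Slc7a1 (CAT1, the constitutive arginine and lysine carrier) had 84.9, 52.8 and 48.5 scaled CPM in KO, against 39.4, 55.5 and 50.1 in WT. Only KO 1 stood above the WT range, and the fold change was 0.36 ± 0.24 (edgeR adjusted p 0.561) and 0.09 without KO 1 and WT 3. The other cationic members were Slc7a3, at 0.259 ± 0.320 scaled CPM in KO and 0.945 ± 0.505 in WT, Slc7a4, with a fold change of 0.20 ± 0.20, and the lysosomal Slc7a14, with -0.11 ± 0.24, and none of these passed the test.

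In Slc1, both neutral exchangers had fold changes above 0, and neither passed the test. Slc1a4 (ASCT1, which exchanges alanine, serine and cysteine) had 62.3, 37.9 and 58.4 scaled CPM in KO, against 35.4, 30.1 and 31.0 in WT. The lowest KO library lay only a little above the highest WT library. Means were 52.9 ± 13.1 in KO and 32.1 ± 2.84 in WT, and the fold change was 0.72 ± 0.21 (edgeR adjusted p 0.216, DESeq2 0.0558) and 0.56 without KO 1 and WT 3. Slc1a5 (ASCT2, the main glutamine exchanger of dividing cells) had 128, 94.8 and 164 scaled CPM in KO, against 108, 105 and 120 in WT. KO 2 lay below every WT library and the other KO libraries above, with a fold change of 0.22 ± 0.20 (edgeR adjusted p 0.695).

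The epithelial glutamate carrier Slc1a1 had 37.4, 35.1 and 27.3 scaled CPM in KO, against 22.0, 31.5 and 46.4 in WT. Its KO libraries lay inside the WT range, and its sign depended on the scaling, with 0.00 ± 0.27 here and -0.031 with upper-quartile factors. The glutamate carriers of the nervous system were low, and Slc1a2 had a fold change of -0.13 ± 0.58.

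**Figure D3:**
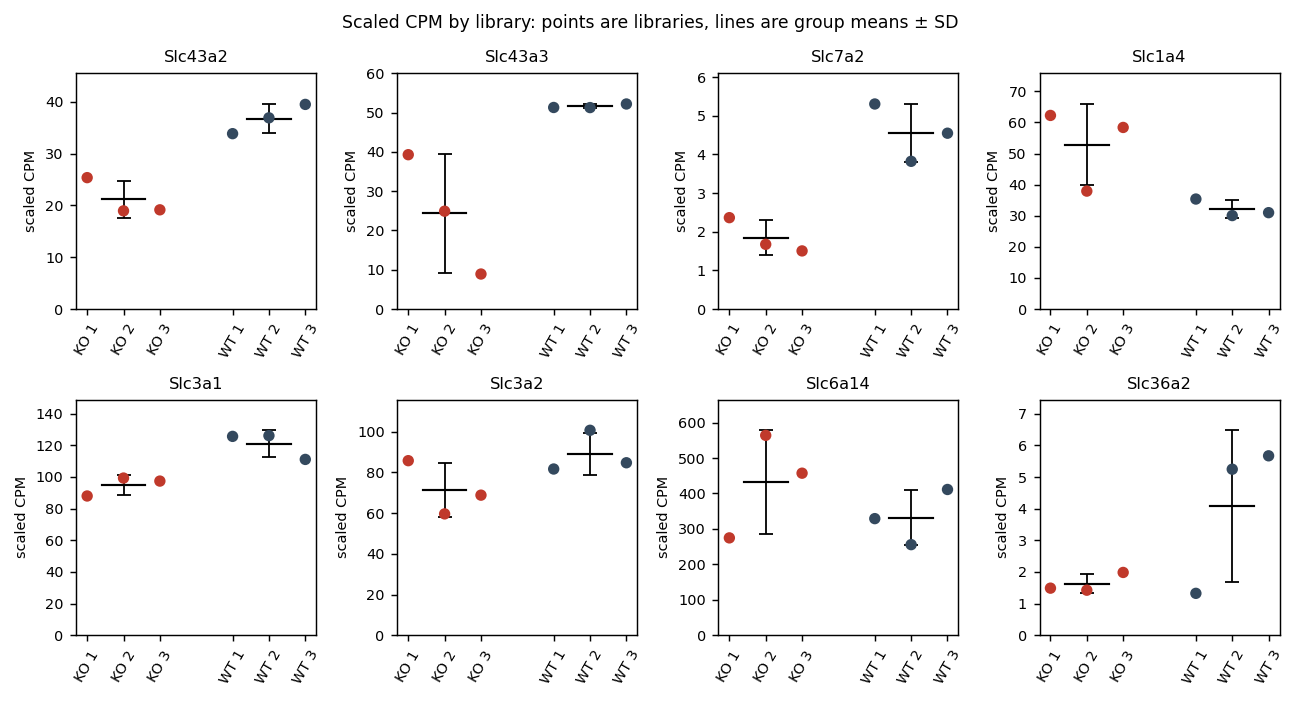
Scaled CPM of 8 carriers in each library, KO left and WT right, with lines for the group mean ± SD (n = 3 each). KO and WT do not overlap for Slc43a2, Slc43a3, Slc7a2, Slc1a4 and Slc3a1, whereas they overlap for Slc3a2, Slc6a14 and Slc36a2.

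Both heavy chains were lower in KO by about the same factor, without passing the test. Slc3a1 (rBAT, partner of the cystine and dibasic amino acid carrier Slc7a9) had 88.0, 99.3 and 97.4 scaled CPM in KO, against 126, 126 and 111 in WT. The groups did not overlap, and the fold change was -0.35 ± 0.13 (edgeR adjusted p 0.315). Prepl overlaps this gene on the opposite strand. Slc3a2 (CD98, partner of most other light chains) had 85.7, 59.6 and 68.8 scaled CPM in KO, against 81.6, 101 and 84.7 in WT, with KO 1 inside the WT range. Its fold change was -0.32 ± 0.17 (edgeR adjusted p 0.463), and -0.51 without KO 1 and WT 3.

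The light chains overlapped between the groups. Slc7a9 had 12.9, 7.68 and 14.1 scaled CPM in KO, against 11.8, 15.1 and 19.8 in WT, with a fold change of -0.42 ± 0.29 (edgeR adjusted p 0.574). Slc7a5 (LAT1, which brings leucine and tryptophan to activated cells) had 40.7, 20.8 and 21.4 in KO, against 15.8, 21.5 and 23.8 in WT. Only its KO 1 value lay outside the WT range, and the fold change was 0.44 ± 0.30 (edgeR adjusted p 0.571). Slc7a7 (y+LAT1, the basolateral exit for arginine and lysine) had 58.1, 43.6 and 51.1 in KO, against 57.4, 52.3 and 48.7 in WT. It was the most abundant light chain and differed least, with -0.05 ± 0.15 (edgeR adjusted p 0.914).

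Slc7a8 (LAT2, its neutral counterpart) had 27.5, 13.2 and 14.7 scaled CPM in KO, against 15.8, 21.9 and 34.9 in WT, and a fold change of -0.39 ± 0.36 (edgeR adjusted p 0.698). Slc7a11 (xCT, which imports cystine for glutathione) had 2.67, 5.58 and 2.42 in KO, against 4.49, 3.21 and 4.66 in WT, with -0.22 ± 0.38 (edgeR adjusted p 0.843). KO 2 was its highest library of all and the other KO libraries its lowest. Slc7a6 had a fold change of 0.09 ± 0.21.

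Heavy and light chains were also compared as ratios of TPM. Slc3a1 over Slc7a9 was 6.79 ± 2.38 in KO and 6.30 ± 2.08 in WT. Slc3a2 over the sum of its 6 light chains was 0.858 ± 0.0754 in KO and 0.992 ± 0.117 in WT, a gap larger than either SD although KO 3 lay above WT 3. Slc7a7 made up 58.7 ± 5.99% of those light chains in KO and 60.7 ± 7.50% in WT (SD, n = 3 each). These ratios were not tested.

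Slc6 held the most abundant carriers and no call in edgeR. Slc6a14 had 275, 564 and 457 scaled CPM in KO, against 329, 256 and 411 in WT, so that KO 2 and KO 3 were the highest of all libraries and KO 1 was among the lowest. Its fold change was 0.38 ± 0.30 (edgeR adjusted p 0.630). Without KO 1 and WT 3 the fold change was 0.80, with an edgeR adjusted p of 0.219 and a DESeq2 adjusted p of 0.0454. In that DESeq2 fit, chosen after the data were seen, it was the 1 carrier called higher (background 0.846%), and Slc43a2 and Slc43a3 were the 2 called lower (background 2.91%), of 41. With KO 3 left out instead, DESeq2 called only Slc43a2 lower of 48 (background 2.44%).

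Slc6a8 had 265, 321 and 220 scaled CPM in KO, against 290, 228 and 326 in WT, and a fold change of -0.07 ± 0.21 (edgeR adjusted p 0.916), which was 0.06 without KO 1 and WT 3. Slc6a6 had 230, 181 and 173 in KO, against 238, 220 and 202 in WT, with -0.18 ± 0.16 (edgeR adjusted p 0.694). Both overlapped between the groups. The serotonin carrier Slc6a4, which clears serotonin released by enteroendocrine cells, had 8.63, 11.4 and 8.64 in KO, against 5.82, 6.57 and 10.3 in WT. Its fold change was 0.34 ± 0.27 (edgeR adjusted p 0.641).

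Slc6a19 had 1.28, 1.12 and 0.751 scaled CPM in KO, against 1.80, 1.32 and 1.12 in WT, with overlapping groups and -0.43 ± 0.38 (edgeR adjusted p 0.679). Of the remaining tested Slc6 members, the proline carrier Slc6a7 had -1.21 ± 0.53 at 0.435 ± 0.234 scaled CPM in KO and 1.02 ± 0.381 in WT. Slc6a15 had -0.83 ± 0.51. The glycine carrier Slc6a9, Slc6a11 and Slc6a17 lay between -0.12 and 0.41, and none of these 5 passed the test.

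No Slc38 carrier tested passed the threshold in edgeR or DESeq2. Slc38a6 had 173, 185 and 180 scaled CPM in KO, against 160, 151 and 193 in WT, with 0.09 ± 0.15 (edgeR adjusted p 0.829). Slc38a2 had 155, 167 and 127 in KO, against 134, 151 and 163 in WT, with 0.00 ± 0.16 (edgeR adjusted p 0.993). Its neighbour Slc38a1, 44.5 kb away and also a system A carrier, had 104, 104 and 85.1 in KO, against 76.9, 77.8 and 100 in WT. KO 1 and KO 2 were its highest libraries, and the fold change was 0.21 ± 0.16 (edgeR adjusted p 0.628).

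Slc38a10 had 190, 139 and 124 scaled CPM in KO, against 144, 161 and 155 in WT, with -0.02 ± 0.18 (edgeR adjusted p 0.967). Slc38a9, the lysosomal arginine sensor of mTORC1, had 8.27, 7.87 and 10.8 in KO, against 14.1, 10.8 and 9.77 in WT. These groups overlapped, and the fold change was -0.36 ± 0.23 (edgeR adjusted p 0.544). The lysosomal glutamine carrier Slc38a7 had -0.18 ± 0.21, Slc38a4 had 0.46 ± 0.51 and Slc38a11 had -0.32 ± 0.97. Slc38a11 had no read in KO 3, and its fold change was 0.27 without that library.

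In Slc36, the proton-coupled Slc36a1 of lysosomes and brush border had 65.0, 73.5 and 51.5 scaled CPM in KO, against 43.2, 45.3 and 92.6 in WT. WT 3 alone was above the KO range, and the fold change was 0.07 ± 0.30 (edgeR adjusted p 0.941) and 0.50 without KO 1 and WT 3. Slc36a2, 19.3 kb away, had 1.49, 1.43 and 1.99 in KO, against 1.33, 5.25 and 5.67 in WT. WT 1 was its lowest library, and the fold change was -1.31 ± 0.53 (edgeR adjusted p 0.352, DESeq2 0.219) and -0.93 without KO 1 and WT 3. Slc36a4 had -0.09 ± 0.21.

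Leaving out KO 1 and WT 3 turned the sign of 8 of the 42 tested carriers. Slc6a8 and Slc7a11 went to the upper side of 0, as did Slc1a2 (0.17), Slc1a3 (0.24), Slc7a14 (0.16) and Slc36a4 (0.048), while Slc6a9 (-0.09) and Slc7a6 (-0.12) went to the lower side. Among the others, the fold change without these libraries was 0.69 for Slc6a4, 0.18 for Slc7a5, -0.37 for Slc6a6, -0.75 for Slc6a19 and -0.21 for Slc7a7. In Slc38 it was 0.23 for Slc38a6, -0.22 for Slc38a10, -0.44 for Slc38a7, 0.86 for Slc38a4 and -0.81 for Slc38a11. It was 0.22 for Slc1a1, 0.044 for Slc38a2, 0.14 for Slc6a11, -0.30 for Slc6a17 and 0.13 for Slc7a4. For Slc7a3 it was -2.86, against -1.77 with all libraries. None of these was called by edgeR.

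Summed by family, 5 of 7 families had overlapping groups. Slc43 summed to 71.3, 47.6 and 32.4 scaled CPM in KO, against 91.1, 95.1 and 99.5 in WT, a log2 ratio of means of -0.92. Slc43a3, the purine base carrier on which KO 3 weighed heavily, made up 52.2% of this sum over all libraries. Slc3 summed to 174, 159 and 166 in KO, against 207, 227 and 196 in WT, a log2 ratio of -0.34. In both families every KO library lay below every WT library, and without KO 1 and WT 3 the log2 ratios were -1.22 for Slc43 and -0.42 for Slc3. Slc1 averaged 219 ± 42.6 in KO and 183 ± 22.7 in WT (log2 ratio 0.26), but the median over its 5 tested genes was 0.00, as Slc1a4 and Slc1a5 carried the sum.

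Slc6 averaged 947 ± 145 scaled CPM in KO and 883 ± 123 in WT (log2 ratio 0.10). Slc38 averaged 613 ± 61.4 in KO and 598 ± 56.7 in WT (0.04), and Slc7 220 ± 50.3 in KO and 213 ± 20.6 in WT (0.05). Slc36 averaged 80.2 ± 11.4 in KO and 80.7 ± 30.1 in WT (-0.01). In these 4 families the sums differed by less than the SD between libraries. Without KO 1 and WT 3 the log2 ratios were 0.32 for Slc1, 0.28 for Slc6, 0.05 for Slc38, -0.09 for Slc7 and 0.35 for Slc36. Slc7 and Slc36 thus turned sign, both from values near 0. The Slc36 libraries, at 91.9 and 69.2 in KO and 63.4 and 63.3 in WT, no longer overlapped. With so few libraries left in each group, such a separation easily arises by chance. The sums weight genes by level and carry no test.

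**Figure D4:**
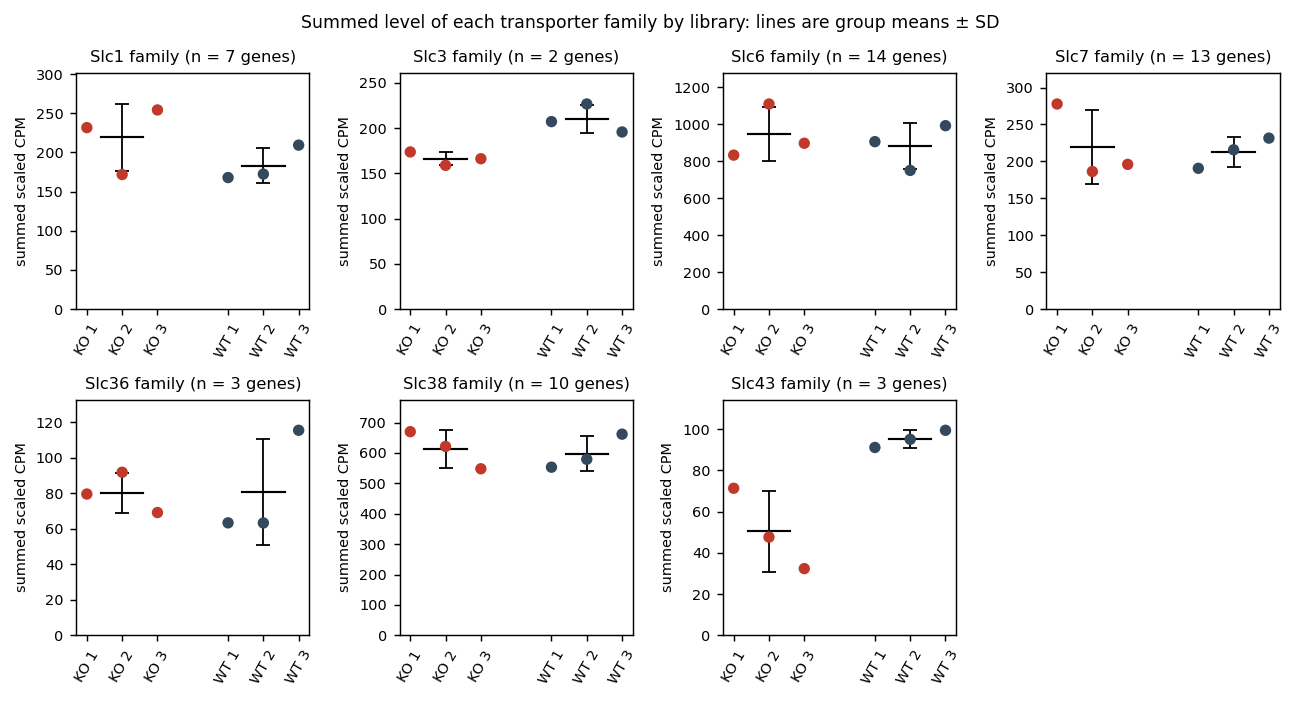
Scaled CPM summed over the members of each family in each library, KO left and WT right, with lines for the group mean ± SD (n = 3 each). The Slc43 and Slc3 sums do not overlap between the groups, whereas the other 5 families do when all 6 libraries are used.

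Several low carriers were highest in the libraries where markers of other tissues were high, and they were singled out after their values were seen. The system N glutamine carrier Slc38a3 had 129, 6 and 0 counts in KO, against 0, 9 and 249 in WT, and Slc38a5 had 88, 7 and 3 in KO, against 0, 2 and 43 in WT. Both were highest in KO 1 and WT 3, the libraries rich in acinar transcripts. The fibroblast and enteroendocrine marker sums were also highest in KO 1 and WT 3, with a narrower spread among libraries than the acinar sum. The glial glutamate carrier Slc1a3 had 2.83, 2.54 and 2.20 scaled CPM in KO, against 0.727, 3.31 and 10.6 in WT. WT 3 was also its highest library, but KO 1 lay below WT 2. The 6 enteric glia markers summed to 14.0, 17.2 and 24.0 scaled CPM in KO, against 27.1, 22.2 and 27.8 in WT. WT 3 was highest in this sum too, whereas WT 1, the lowest library for Slc1a3, was close to it. The fold change of Slc1a3 was -0.94 ± 0.76 with all libraries and 0.24 without KO 1 and WT 3.

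Slc36a2 and Slc7a10, both known adipocyte carriers in mouse, were highest in WT 2 and WT 3. Slc7a10 had 0.154, 0.248 and 0.376 scaled CPM in KO, against 0.214, 0.509 and 1.40 in WT. The 6 adipocyte markers summed to 101, 76.7 and 129 scaled CPM in KO, against 71.3, 257 and 453 in WT, which is the same order among the WT libraries. The macrophage, endothelial and acinar marker sums also rose from WT 1 to WT 3, so this order was not particular to adipocytes. Among the KO libraries, Slc7a10 did not follow the order of the adipocyte sum, while Slc36a2 did. Smooth muscle markers (8 genes) summed to 3836, 4585 and 4629 in KO, against 3509, 2677 and 2196 in WT, with no overlap, and the 10 neutrophil markers to 50.4, 17.2 and 10.6 in KO, against 219, 113 and 107 in WT. The 8 fibroblast markers summed to 4431, 2556 and 730 in KO, against 3452, 2450 and 4870 in WT. None of the markers in these lists was at 0 in every library. The part of these tissues in the carrier values was not tested.

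**Figure D5:**
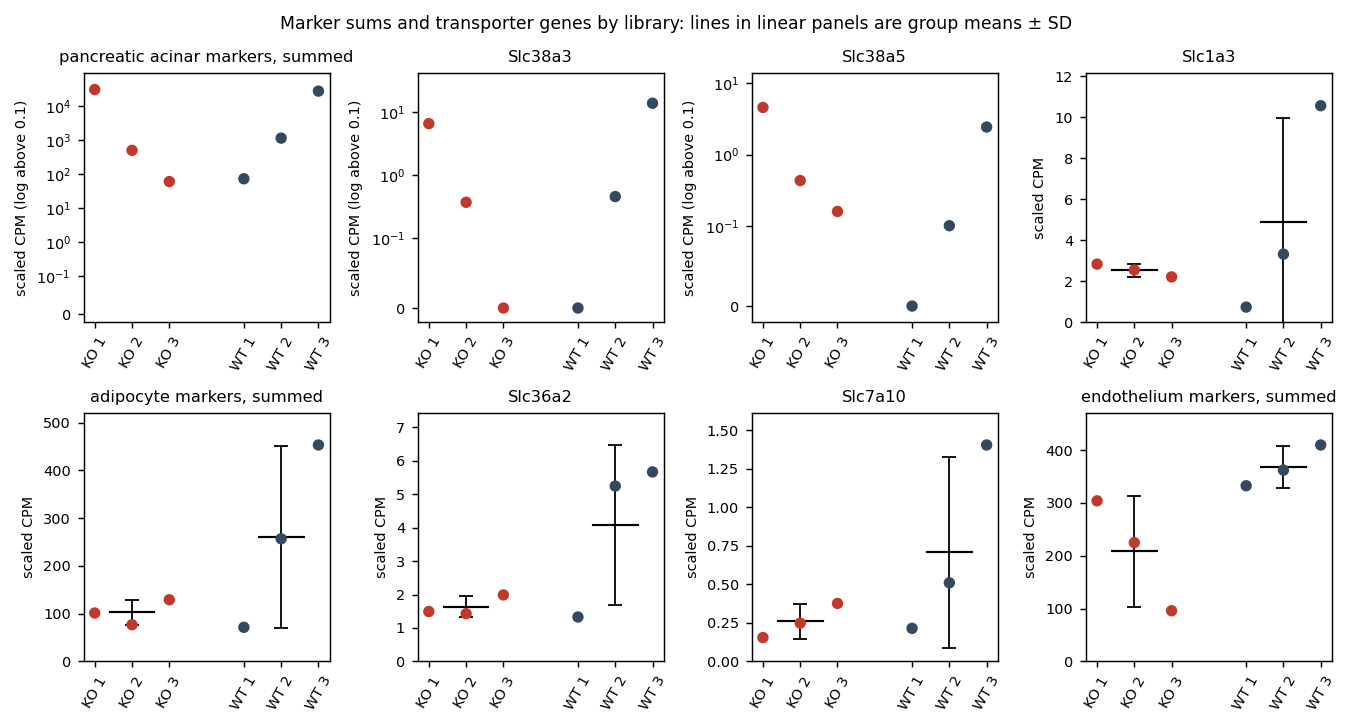
Summed scaled CPM of acinar, adipocyte and endothelial markers beside 5 carriers, by library, KO left and WT right (the 3 panels with large ranges are logarithmic above 0.1; the others show group mean ± SD). Slc38a3 and Slc38a5 are highest in KO 1 and WT 3, as the acinar sum is, and Slc36a2 and Slc7a10 are highest in WT 2 and WT 3, as the adipocyte sum is.

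Genes that use or sense the carried amino acids were counted in lists that were chosen with earlier results known, and edgeR called none in any list. Of the 34 enzymes that use carried amino acids, 33 were tested, 20 above 0 and 13 below, with a median of 0.08. This median was 0.21 without KO 1 and WT 3. DESeq2 called 1 lower, Ido1, and none higher, where it called 2.76% of all genes lower and 0.678% higher, so that 1 gene in a list of this size is near the background. Ido1, which breaks down tryptophan, had 15.1, 14.5 and 10.2 scaled CPM in KO, against 17.0, 71.3 and 42.1 in WT. The groups did not overlap, although WT 1 came close, and Ido1 fell in the DESeq2 fit (-1.71 ± 0.46 with edgeR; edgeR adjusted p 0.194, DESeq2 0.00305). Nos2, the inducible nitric oxide synthase that uses arginine, had 101, 51.9 and 26.5 in KO, against 87.6, 284 and 198 in WT, with overlapping groups (-1.67 ± 0.53; edgeR adjusted p 0.259). Bcat1, which starts branched-chain amino acid breakdown, had -1.31 ± 0.40 (edgeR adjusted p 0.240), and Odc1, the ornithine decarboxylase of polyamine synthesis, had 0.40 ± 0.16 (edgeR adjusted p 0.350).

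The cytosolic aminoacyl-tRNA synthetases, which load amino acids onto tRNA, lay above 0 for 18 of 20 genes, with a median of 0.28. DESeq2 called none with all libraries, and 5 had an unadjusted edgeR p below 0.05, all higher (background 5.17%). Rars, for arginine, had 92.0, 105 and 105 scaled CPM in KO, against 64.6, 72.2 and 79.2 in WT, with no overlap and 0.48 ± 0.14 (edgeR adjusted p 0.207). Tars, Gars, Farsb and Nars also had no overlap, with fold changes of 0.50, 0.48, 0.48 and 0.35 (edgeR adjusted p 0.219, 0.234, 0.251 and 0.334). These 5 of 20 were the synthetases with no overlap, where 9.35% of all genes were higher in KO without overlap.

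The 23 genes of the amino acid response, which ATF4 switches on when amino acids are scarce, had 13 above 0 and 10 below, with a median of 0.02, and DESeq2 called 1 lower (background 2.76%) and none higher (background 0.678%), again near the background. Cebpb, a factor that binds the same element as ATF4, had 30.2, 20.2 and 15.5 scaled CPM in KO, against 41.1, 42.7 and 36.7 in WT. It fell in the DESeq2 fit (-0.87 ± 0.25; edgeR adjusted p 0.207, DESeq2 0.0348), whereas Atf4 itself had 0.11 ± 0.18. Without KO 1 and WT 3, Atf4 was at -0.05 and the median of this list at -0.09. Ddit4 had -0.54 ± 0.18 and Aldh18a1, a proline synthesis enzyme, 0.54 ± 0.19 (edgeR adjusted p 0.266 and 0.300). Among 29 genes of amino acid sensing by mTORC1, 14 lay above 0 and 15 below, and DESeq2 called none. Their median was -0.015 with all libraries and 0.014 without KO 1 and WT 3. The smallest p-values belonged to the leucine sensor family member Sesn1 (-0.42 ± 0.18) and the arginine sensor family member Castor2 (-0.39 ± 0.17). The edgeR adjusted p was 0.379 for Sesn1 and 0.396 for Castor2.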

How the data were processed

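Read counts per gene, TPM, log2 fold changes and p-values with their false discovery rate were deposited by the authors in 1 table. Colon RNA was extracted with Trizol and made into libraries with a SMARTER kit for mRNA, per the labels' protocols. Builds GRCm38, mm10 and mm39 appear in the submitters' processing notes. Aligner, counter, annotation and strandedness: not given in the sources used here, whether for counts or TPM. The deposited log2 fold change equals a ratio of mean TPM. The deposited p-value equalled a DESeq2 1.42.0 Wald p within 0.1% for 17705 of 17705 genes with p below 1.

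Raw counts were tested with edgeR 4.0.16 (R 4.3.3; TMM factors, filter by group, quasi-likelihood F-test), with Benjamini-Hochberg adjustment over all 14553 genes tested and a threshold of 0.05. Standard errors come from the F statistic and are approximate. The biological coefficient of variation was 29.0%. DESeq2, limma-voom (limma 3.58.1), other scalings and filters, limma on log2(TPM + 1) and leaving libraries out were alternatives; leaving out KO 1 with WT 3, and DESeq2 without KO 3, were chosen after seeing the data. The script was tested on simulated counts. No pair of replicates agreed within sampling noise (smallest chi-square per degree of freedom 43). With 3 against 3 an exact permutation test cannot go below 0.1.

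Members, lists and tests were chosen with earlier results of these data known. Named with values in every library were carriers with edgeR unadjusted p or DESeq2 adjusted p below 0.05, the 10 of highest mean TPM, 21 carriers chosen for their known role, and the genes of smallest p in each of 5 pathway lists. Values of some genes are not reported here. Positions are from GENCODE M21 (GRCm38) and promoter stretches from RefSeq (GRCm38.p6).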

Additional observations from a re-analysis of the deposited data

How the results depend on the processing

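No carrier was called higher or lower by edgeR under any scaling, filter or left-out library, nor by limma. DESeq2 called 2 lower, 1 lower without KO 3, and 2 lower and 1 higher without KO 1 and WT 3. Over all genes, calls higher in KO numbered 1 in the main test, 0 with median-ratio factors, 106 with DESeq2, 2 with limma-voom, 3 with no count filter, 3 with the replicate block, 2 and 0 with limma on log2(TPM + 1) and log2(TPM + 0.1), 20 at an adjusted p below 0.1, and between 0 and 2 with 1 library left out. Without KO 1 and WT 3 they numbered 6 with edgeR and 125 with DESeq2, and without KO 3 112 with DESeq2. Calls lower in KO numbered 22, and 9 with median-ratio and 38 with upper-quartile factors, 431 with DESeq2, 66 with no count filter, 78 with the replicate block, 56 and 3 with limma on the TPM scales, 114 at the looser threshold, and between 1 and 29 with 1 library left out. With DESeq2 they numbered 429 without KO 1 and WT 3 and 372 without KO 3. The cause was not tested.

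The replicate numbers were treated as names, since the labels give no pairing. Deviations from the group means correlated at -0.42, -0.15 and -0.43 between same-numbered KO and WT libraries. For KO 1 with WT 3, both rich in acinar transcripts, this correlation was 0.37. Such values mix any pairing with tissue content and cannot settle it. The replicate block called no carrier. Pathway lists held 1 DESeq2 call each in the amino acid response, the other carriers and the enzymes, with all libraries and without KO 1 and WT 3, and 1 in the synthetases without KO 1 and WT 3 or without KO 3. The Slc1 value was 0.00070 as a median over genes, against 0.26 as a sum.

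Signs near 0 turned. Slc1a1 was at -0.00067 with median-ratio factors, -0.031 with upper-quartile factors, -0.0035 with the stricter filter and -0.0047 and -0.0029 on the TPM scales. Slc6a8 was at 0.0597 with edgeR and 0.0603 with DESeq2 without KO 1 and WT 3, and at 0.0659 with DESeq2 without KO 3. Slc7a11 was at 0.0468 with edgeR and 0.0493 with DESeq2 without KO 1 and WT 3, and at 0.0057 with DESeq2 without KO 3. Slc38a2 was at -0.0259 with upper-quartile factors, -0.00028 with limma-voom, and -0.055 and -0.056 on the TPM scales. Slc38a10 was at 0.10 with DESeq2 without KO 3. With 1 library left out, the range was -0.23 to 0.32 for Slc1a1, -0.22 to 0.0595 for Slc6a8, -0.15 to 0.0488 for Slc7a7, -0.13 to 0.52 for Slc36a1, -0.0813 to 0.11 for Slc38a2 and -0.22 to 0.10 for Slc38a10. Over all 42, leaving out 1 library turned the sign of 14. The others were Slc1a2 (-0.67 to 0.32), Slc1a3 (-1.46 to 0.33), Slc6a9 (-0.16 to 0.33), Slc6a11 (-0.13 to 0.75), Slc7a6 (-0.13 to 0.24), Slc7a14 (-0.23 to 0.044), Slc36a4 (-0.24 to 0.015) and Slc38a11 (-1.41 to 0.29). Carriers under about 1 scaled CPM rest on few reads, and small differences there were not detectable at this depth.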

Other observations

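Carriers of amino acids and small peptides outside the 7 families, 12 genes listed by role, gave 10 tested genes, 2 above 0 and 8 below, with a median of -0.14 and no edgeR call. Slc15a3, a lysosomal histidine and peptide carrier of immune cells, had 14.2, 7.99 and 6.23 scaled CPM in KO, against 18.2, 19.9 and 19.7 in WT. The groups did not overlap, and the log2 fold change was -1.02 ± 0.30 (edgeR adjusted p 0.222, DESeq2 0.0377). The macrophage sum given above had the same order among the KO libraries, as had the endothelial, fibroblast and neutrophil sums. Their part in this value was not tested. The peptide carrier Slc15a1 had 49.8, 56.1 and 15.3 in KO, against 48.5, 33.3 and 74.3 in WT, with -0.36 ± 0.46 (edgeR adjusted p 0.778). Slc6a20a, a proline carrier whose symbol does not match the naming rule, had 0.20 ± 0.49. Without KO 1 and WT 3, Slc15a1 was at -0.20 and Slc6a20a at 0.53.

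In the authors' pathway annotation, 13 of the 52 carriers belonged to protein digestion and absorption, 13 to the synaptic vesicle cycle and 3 to mTOR signaling (Slc3a2, Slc7a5 and Slc38a9).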
